A study of Mus musculus with 46 samples.

Results

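The 9 genes described here encode receptors of colony-stimulating factors, the ligand Csf1, and members of the BCL2 family that set the threshold for mitochondrial cell death. They were chosen by name from the gene symbols of the deposited count and TPM (length-scaled transcript level) tables: Csf1r, Csf2ra, Csf2rb, Csf3r, Csf1, Bcl2, Bcl2l1, Bcl2l11 and Mcl1. All 9 of the 20999 genes listed were found, and all 9 were among the 12230 genes with enough counts to be tested. The question the design puts to them is what their RNA and their chromatin look like in microglia that refill the brain after an inhibitor of the receptor CSF1R is withdrawn, beside untreated adult microglia and the newborn microglia that proliferate at postnatal day 8 (PND8).

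RNA was measured in 10 libraries, 5 groups of 2, from male C57BL/6 mice. Adult libraries came from untreated wild-type mice of 90 days and are labelled as Ki67-negative microglia. PND8 and repopulating libraries came from mice with a Ki67 reporter (Ki67-rfp), sorted into Ki67-negative and Ki67-positive cells, Ki67 being a protein of cycling cells. Repopulating cells were taken at 75 days, from mice that ate the CSF1R inhibitor PLX5622 for 17 days from day 55 and then recovered for 3 days. Acetylation of histone H3 at lysine 27 (H3K27ac), found at promoters and enhancers in use, was mapped in 12 libraries from fixed cells of wild-type mice that were stained for Ki67, 6 groups of 2. These were adult (60 and 65 days, Ki67-negative), PND8 of either Ki67 status, the demyelinating diet cuprizone for 4 weeks (90 days, either Ki67 status), and repopulating Ki67-positive cells (PLX5622 for 17 days from day 70 and 3 days of recovery, 90 days per the labels). Adult H3K4me3 (75 days) and Rpb2 (60 and 65 days), PND8 Ki67-positive Rpb2, and ATAC-seq of adult cells (80 days) and of PND8 and repopulating (75 days) Ki67-positive cells add 8 libraries; the last 2 are titled Ki67rfp but labelled wild type. No group was taken while on the inhibitor. Adult RNA libraries differ from all other RNA libraries in age, in the reporter allele and in the code of their file header. Treatment, age, genotype and code therefore cannot be told apart in RNA comparisons with adult. For H3K27ac, repopulating libraries differ from adult ones in age and Ki67 status as well as treatment, and these cannot be told apart either.

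CSF1R is a receptor tyrosine kinase bound by CSF1 and IL-34, and microglia depend on its signal for survival. The receptors for GM-CSF, IL-3 and IL-5 each pair their own alpha chain, CSF2RA for GM-CSF, with a common beta chain, CSF2RB, which signals through JAK2 and STAT5, and CSF3R is the receptor of the neutrophil growth factor G-CSF. Inside the cell, BCL2, BCL-XL (from Bcl2l1) and MCL1 hold the pore-forming proteins BAX and BAK in check, and BIM (from Bcl2l11), a BH3-only protein, releases them; loss of growth factor signals is known to raise BIM.

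RefSeq promoters (GRCm38.p6, 250 bases before to 50 after a start) were available for 7 of the 9 genes. The promoters of 4 genes whose RNA or chromatin differed between groups are shown, because the peaks described further on lie over them. Capitals mark GC boxes (GGGCGG on either strand) and FOXO-type motifs (GTAAACA on either strand), FOXO factors being known regulators of Bcl2l11. Csf2ra lies at chr19:61228369-61228668 on the minus strand, Csf1 at chr3:107760420-107760719 on the minus strand, Bcl2 at chr1:106714241-106714540 on the minus strand and Bcl2l11 at chr2:128125788-128126087 on the plus strand; each is read 5′ to 3′ along its gene.
Csf2ra: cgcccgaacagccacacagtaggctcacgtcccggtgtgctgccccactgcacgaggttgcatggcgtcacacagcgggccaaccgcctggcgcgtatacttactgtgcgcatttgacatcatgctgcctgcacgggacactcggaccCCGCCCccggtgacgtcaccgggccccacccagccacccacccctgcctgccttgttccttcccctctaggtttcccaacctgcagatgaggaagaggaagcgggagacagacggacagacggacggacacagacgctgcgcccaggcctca
Csf1: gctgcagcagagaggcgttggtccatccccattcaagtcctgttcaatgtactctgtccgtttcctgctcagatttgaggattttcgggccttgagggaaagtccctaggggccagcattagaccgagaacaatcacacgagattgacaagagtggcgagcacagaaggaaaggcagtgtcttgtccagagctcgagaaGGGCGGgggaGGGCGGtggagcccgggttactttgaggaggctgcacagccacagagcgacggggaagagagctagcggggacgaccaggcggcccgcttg
Bcl2: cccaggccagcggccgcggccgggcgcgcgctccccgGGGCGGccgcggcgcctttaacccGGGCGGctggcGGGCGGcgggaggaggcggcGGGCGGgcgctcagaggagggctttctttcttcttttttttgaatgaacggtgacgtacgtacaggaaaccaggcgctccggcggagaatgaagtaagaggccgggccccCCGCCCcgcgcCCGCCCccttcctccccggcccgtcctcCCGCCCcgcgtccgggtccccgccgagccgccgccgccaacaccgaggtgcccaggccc
Bcl2l11: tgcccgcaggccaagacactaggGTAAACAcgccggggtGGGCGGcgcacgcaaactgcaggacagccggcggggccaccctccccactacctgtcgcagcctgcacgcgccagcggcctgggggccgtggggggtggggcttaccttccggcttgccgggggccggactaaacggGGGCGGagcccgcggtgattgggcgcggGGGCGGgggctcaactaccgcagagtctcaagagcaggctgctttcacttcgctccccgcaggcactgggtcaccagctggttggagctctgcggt
The Bcl2l11 promoter shown held 1 FOXO-type match, 227 bases before the start, and 3 GC boxes. Another RefSeq promoter of Bcl2l11, not shown, has its start 1537 bases further into the gene. It held 3 GC boxes and no FOXO-type match. Of 32851 promoters of this length, 3.65% held the FOXO-type motif and 35.7% a GC box. The Bcl2 promoter held 7 GC boxes, that of Csf1 2 and that of Csf2ra 1. Neither the PU.1 motif GAGGAAGT (3.2% of promoters), the STAT motif TTCNNNGAA (8.3%) nor the AP-1 motif TGANTCA (7.81%) had a match on either strand in these 4 windows. The interferon motif core GAAANNGAA (8.56%) matched none of the 4 either, but had 1 match in the promoter of Csf3r, 40 bases past its start. These matches describe letters in a window and nothing about binding.

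Library totals ran from 6865903 to 10287876 counts. Levels are given below as CPM, counts scaled to a common library size after TMM normalization, with each library's value. The 10 microglial markers were detected in every group and summed to 6677 to 8911 CPM. Markers of other cells moved with the groups. The summed level of 7 border macrophage markers was 607.4 to 859.2 CPM at PND8, against 64.54 and 79.79 in adult and 26.21 to 43.03 in repopulation. At PND8 this sum was mostly Mrc1, at 519.7 to 833.6 CPM. Against adult, 6 of the 7 passed the test given below as higher in PND8 Ki67-negative and 3 in Ki67-positive cells. None passed as lower, and 25.4% and 25.1% of all tested genes were higher. Cd163 was 2.313 and 3.468 CPM in PND8 Ki67-positive cells, against 4.048 and 8.309 in adult. For 10 neutrophil markers the sum was 215 and 55.36 CPM in adult, 15.86 to 27.98 at PND8 and 0 to 1.583 in repopulation. At PND8 this sum was mostly Cxcr2, at 11.79 to 26.05 CPM, which was 0.347 and 0 CPM in adult. S100a8, S100a9, Ngp, Ltf and Camp went the other way, each at 7.087 to 83.39 CPM in adult and at most 1.156 at PND8. The 13 genes known to rise on tissue dissociation summed to 1146 and 1202 CPM in adult, 585 to 2257 at PND8 and 538.7 to 558.9 in repopulation. Summed markers reached at most 41.06 CPM for monocytes, 1.212 for lymphocytes, 8.072 for neurons, 24.63 for astrocytes, 87.95 for the oligodendrocyte lineage and 81.91 for endothelium. The part of these lists in the differences below was not tested, also where their values are set beside those of a gene. In bulk RNA, fewer cells of a type and less RNA per cell cannot be told apart.

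By TPM, which is per transcript length, the 9 genes kept much the same order in all libraries. Csf1r was the most abundant, at 493 to 651 TPM, and Csf3r, at 149 to 317 TPM, overlapped Csf2ra, at 146 to 299 TPM. Mcl1 lay at 113 to 163 TPM and Csf2rb at 79.1 to 97.9 TPM, which overlapped Bcl2l1 at 58.3 to 107 TPM. Csf1, at 21.1 to 80.2 TPM, and Bcl2l11, at 17.6 to 43.7 TPM, overlapped too, and Bcl2 was lowest at 5.6 to 10 TPM. For Bcl2 and Bcl2l1 the TPM table names another transcript than the count table.

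**Figure D1:**
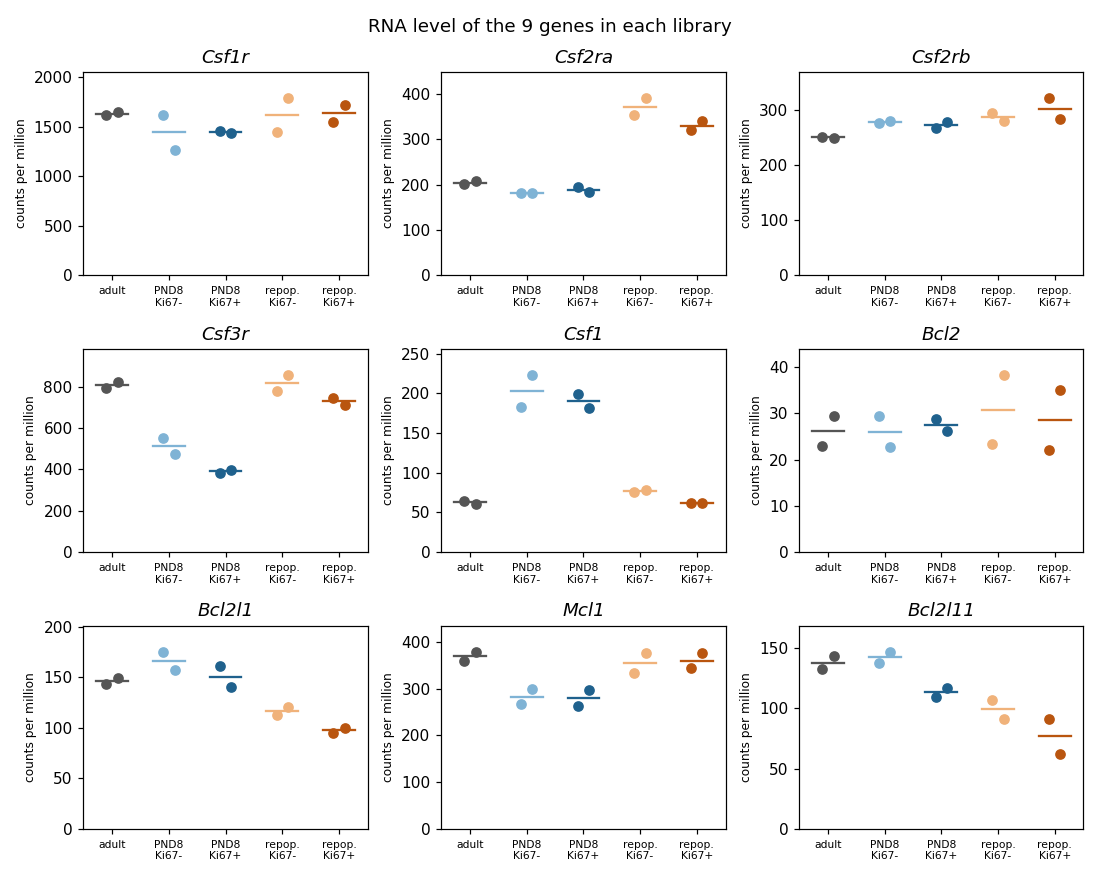
RNA level of each gene in CPM (linear axes from 0) in the 10 libraries; points are libraries and lines are means of 2. Csf2ra stands higher in the 4 repopulating libraries than in the other 6, Csf1 is highest at PND8, Csf3r is lowest at PND8, and Bcl2l1 and Bcl2l11 are lowest in repopulation.

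In repopulating microglia the GM-CSF receptor alpha chain rose and 2 genes of opposite function in the BCL2 family, Bcl2l1 and Bcl2l11, fell. Against adult, 4 of the 9 genes passed the test (edgeR's quasi-likelihood test, Benjamini-Hochberg adjustment over all genes) in Ki67-negative cells, 2 higher and 2 lower, where 21.5% of all tested genes were higher and 17.6% lower. In Ki67-positive cells 4 passed too, 2 higher and 2 lower, against 23.9% and 21% of all genes. The shares of the 9 are near those of all genes. The comparisons with adult share the same 2 adult libraries. The median log2 fold change of the 9 was 0.018 in Ki67-negative and -0.011 in Ki67-positive cells, beside -0.0091 and -0.0097 over all genes.

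Among the receptors, Csf2ra carried the largest change. It was 202.5 and 207 CPM in adult, 353.7 and 390.2 in Ki67-negative and 319.5 and 341 in Ki67-positive repopulating cells. All 4 repopulating libraries were above all others measured, with no overlap. The log2 fold change against adult was 0.86 (SE 0.082, edgeR adjusted p = 2.97e-06) in Ki67-negative and 0.69 (SE 0.082, adjusted p = 1.78e-05) in Ki67-positive cells. At PND8 Csf2ra was 181.5 to 195.3 CPM and did not pass the test against adult, at -0.17 (SE 0.083) and -0.11 (SE 0.083). Repopulating cells exceeded PND8 cells of the same Ki67 status by 1.03 (adjusted p = 6.63e-07) and 0.80 (adjusted p = 7.67e-06). Within header code 200309, which holds PND8 replicate 2 and repopulating replicate 1, these differences were 0.96 and 0.8.

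Csf2rb, the common beta chain, moved far less than its partner. It was 252.5 and 249.8 CPM in adult, 294.8 and 280.4 in Ki67-negative and 321.9 and 284.4 in Ki67-positive repopulating cells. The difference passed the test in Ki67-positive cells (log2 fold change 0.27, SE 0.082, adjusted p = 0.0159) and not in Ki67-negative cells (0.20, SE 0.082, adjusted p = 0.0752; 0.0293 with the 2 groups fitted alone), although no library overlapped the adult range in either. The call in Ki67-positive cells was lost on leaving out either adult library or repopulating replicate 1 (0.16, adjusted p = 0.243) and with limma on TPM. At PND8 Csf2rb was 268.8 to 280 CPM. Csf2rb shares most of its sequence with Csf2rb2, so reads could be split between them; Csf2rb2 was 171.3 to 214 CPM, and its own start lies 19 to 22 kb upstream within 1 H3K27ac region. The ratio of Csf2ra to Csf2rb CPM was 0.802 and 0.829 in adult, 0.648 to 0.727 at PND8 and 0.992 to 1.39 in repopulation, without overlap.

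Csf1r, the target of the inhibitor, stayed near its adult level: 1613 and 1643 CPM in adult, 1440 and 1783 in Ki67-negative and 1545 and 1717 in Ki67-positive repopulating cells. PND8 libraries gave 1267 to 1617 CPM. The log2 fold change against adult was -0.02 (SE 0.12, adjusted p = 0.938) and 0.0023 (SE 0.12, adjusted p = 0.991) in repopulation and -0.18 and -0.17 (SE 0.12 each) at PND8. The gene passed in none of the 9 contrasts fitted. Fitted on the adult and PND8 Ki67-positive libraries alone it did pass, at -0.16 (adjusted p = 0.00108), and without PND8 Ki67-negative replicate 1 it passed in that group (-0.36, adjusted p = 0.0142).

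How the reads were counted limits what this flat level can show. Per the file headers at most 3 tags were kept per position, and Csf1r reached 3.04 to 3.62 counts per base of its 3851-base transcript, rank 10 of all genes. Its counts ran only from 11703 to 13945 over libraries that differed 1.5 times in total. Between the 2 Ki67-negative repopulating libraries the totals differed 1.42-fold, the median gene of 0.1 to 0.5 counts per base 1.47-fold, and Csf1r 1.18-fold. Across libraries, the median slope of log2 count on log2 library total was 1.2 for 5796 genes of 0.1 to 0.5 counts per base. It was 0.984 for 944 genes of 0.5 to 1, 0.797 for 232 genes of 1 to 1.5 and 0.643 for 72 genes of 1.5 to 2. For 35 genes of 2 to 3 it was 0.585, and for 15 genes of 3 or more 0.429. The libraries belong to different groups, so these slopes also hold differences between groups. Csf3r (0.888 to 1.93 counts per base) and Csf2ra (0.8 to 1.85) reach into the range where counts lagged behind depth, and the other 6 genes stay below 1. How much the limit holds down the fold changes of Csf3r and Csf2ra was not tested.

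**Figure D2:**
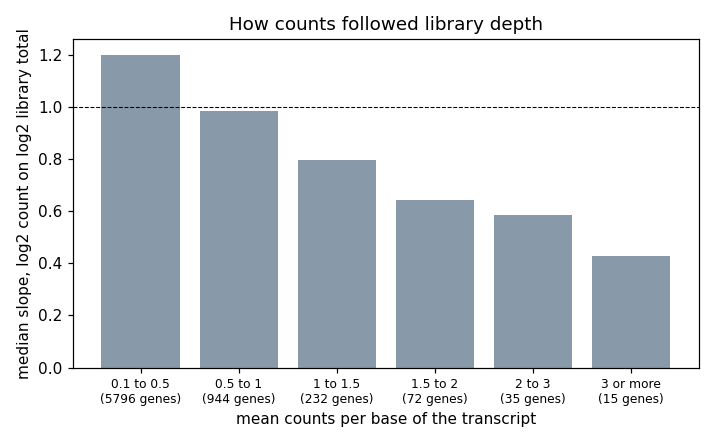
Median slope of log2 count on log2 library total (linear axis from 0; a dashed line marks 1) for tested genes grouped by mean counts per base of the transcript. The slope falls from 1.2 at 0.1 to 0.5 counts per base to 0.984 at 0.5 to 1 and 0.429 at 3 or more, the class of Csf1r.

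Csf3r, the G-CSF receptor, separated newborn from adult and repopulating cells. It was 794.4 and 820.4 CPM in adult, 780.7 and 854.5 in Ki67-negative and 745.9 and 709.7 in Ki67-positive repopulating cells, but 551.5 and 475.6 in Ki67-negative and 383.7 and 399.2 in Ki67-positive cells at PND8. Repopulating Ki67-negative libraries overlapped adult ones, and all 4 PND8 libraries lay below all others. Against adult the log2 fold change was -0.65 (SE 0.091, adjusted p = 7.2e-05) and -1.04 (SE 0.092, adjusted p = 9.01e-07) at PND8, and 0.02 (SE 0.090) and -0.15 (SE 0.091) in repopulation, which did not pass. The Ki67-positive value became a call with library sizes alone (-0.18, adjusted p = 0.0499), with the 2 groups fitted alone and with limma on TPM. Csf3r is a defining receptor of neutrophils. The adult libraries with 794.4 and 820.4 CPM of Csf3r had 215 and 55.36 CPM of neutrophil markers, and the Ki67-negative repopulating libraries with 780.7 and 854.5 CPM had 0 and 0.3048.

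The ligand Csf1 was a PND8 gene. It was 64.08 and 61.22 CPM in adult, 182.8 and 222.8 in Ki67-negative and 198.9 and 182.1 in Ki67-positive cells at PND8, and 62.18 to 78.93 in repopulation. No PND8 library overlapped any other. The log2 fold change at PND8 was 1.70 (SE 0.10, adjusted p = 5.11e-08) and 1.60 (SE 0.10, adjusted p = 5.13e-08). The summed border macrophage markers, mostly Mrc1, were also highest at PND8, and their part in the Csf1 difference was not tested. In repopulation only Ki67-negative cells passed the test against adult (0.30, SE 0.11, adjusted p = 0.0379), and that call was lost without any 1 of the 4 libraries, with library sizes alone and with limma on TPM; Ki67-positive cells were at -0.01 (SE 0.11). Repopulating cells stood below PND8 cells by -1.39 and -1.62 on the log2 scale (adjusted p = 3.26e-07 and 1.02e-07). The other ligand of CSF1R, Il34, had 0 counts in all 10 libraries, which allows up to 3 counts or 0.292 to 0.437 CPM, and Csf3 had 0 and Csf2 at most 2 counts.

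Of the pro-survival genes, Bcl2l1 fell in recovery while Bcl2 and Mcl1 did not pass. Bcl2l1, which encodes BCL-XL, was 143.8 and 149.3 CPM in adult, 112.7 and 120.4 in Ki67-negative and 95.3 and 100.3 in Ki67-positive repopulating cells, with no overlap. PND8 libraries held 140.1 to 174.9 CPM and were not called against adult (0.18 and 0.04). The log2 fold change in recovery was -0.33 (SE 0.095, adjusted p = 0.0138) in Ki67-negative and -0.58 (SE 0.096, adjusted p = 0.000262) in Ki67-positive cells. The Ki67-negative call was lost without either adult library or without repopulating replicate 1 (-0.28, adjusted p = 0.0969), and the Ki67-positive call held in all 11 alternatives. Repopulating cells were also below PND8 cells, by -0.51 (adjusted p = 0.000967) and -0.62 (adjusted p = 0.000271).

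Mcl1, a short-lived protein whose loss is rapidly fatal to many blood cells, was 359.5 and 377.8 CPM in adult and 334 to 375.5 in repopulation, where neither comparison passed (-0.06 and -0.04, SE 0.096). At PND8 it fell, to 266 and 299 CPM in Ki67-negative and 263.5 and 296.6 in Ki67-positive cells, by log2 fold changes of -0.38 (adjusted p = 0.00531) and -0.40 (adjusted p = 0.00387). The first call was lost without adult replicate 2 (adjusted p = 0.0524) and the second without PND8 Ki67-positive replicate 1 (adjusted p = 0.0582). Dissociation-response genes differed between the 2 PND8 replicates by more than 2-fold. Replicate 1 had the higher sum and the lower Mcl1 in both Ki67 states. These replicates also differ in header code, and the part of dissociation in the Mcl1 values was not tested. Bcl2 was the least abundant of the set, 22.9 and 29.45 CPM in adult, 22.66 to 29.45 at PND8 and 22.09 to 38.25 in repopulation. All groups overlapped, the SE of each of its differences was about 0.25, and no contrast called it.

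Bcl2l11, which encodes the pro-apoptotic BIM, fell in recovery. It was 132.8 and 143.2 CPM in adult, 106.7 and 91.58 in Ki67-negative and 91.37 and 62.61 in Ki67-positive repopulating cells, with no overlap. The log2 fold change was -0.47 (SE 0.14, adjusted p = 0.0161) and -0.84 (SE 0.14, adjusted p = 0.000338). Leaving out adult replicate 2 or repopulating replicate 2 ended the call in Ki67-negative cells (-0.42, adjusted p = 0.112, and -0.37, adjusted p = 0.135). In Ki67-positive cells the call held in all 11 alternatives, from -0.59 to -1.16 over the libraries left out. At PND8 it was 137.9 and 146.7 CPM in Ki67-negative and 109.8 and 117.1 in Ki67-positive cells, and neither was called against adult (0.04 and -0.28). Within a setting, Ki67-positive libraries were below Ki67-negative ones in each of 4 pairs within a header code, by -0.22 and -0.55 in repopulation and -0.33 and -0.32 at PND8. That difference did not pass over all genes in the 10-library fit (-0.36, adjusted p = 0.233, and -0.33, adjusted p = 0.2). It passed in both settings with header code as a term (adjusted p = 0.0194 and 0.0182) and with no filter on low counts (adjusted p = 0.0332 and 0.0394).

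Bcl2l1 and Bcl2l11 fell side by side. The ratio of Bcl2l1 to Bcl2l11 CPM was 1.08 and 1.04 in adult, 1.07 to 1.46 at PND8 and 1.04 to 1.6 in repopulation, with overlap. The ratio of Mcl1 to Bcl2l11 was 2.71 and 2.64 in adult, 1.93 to 2.53 at PND8 and 3.13 to 5.99 in repopulation, and there the 3 settings did not overlap.

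**Figure D3:**
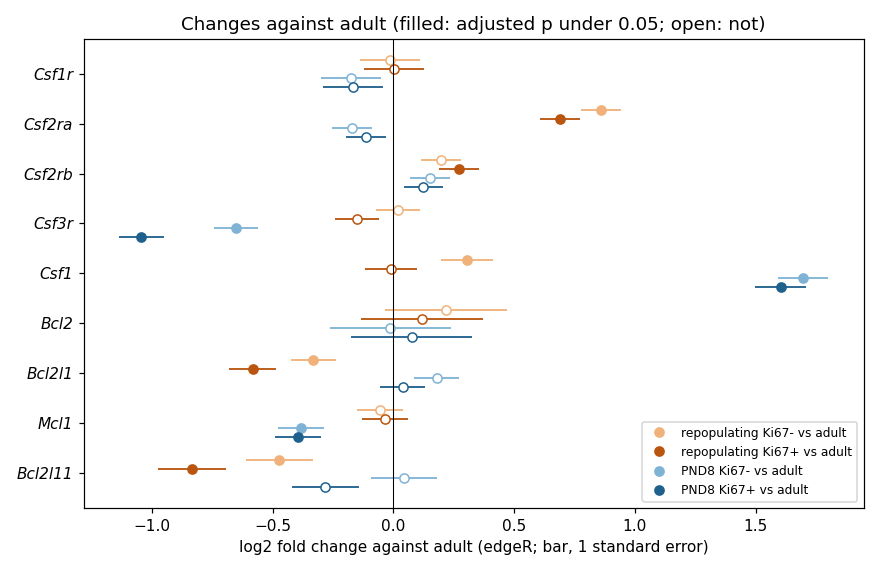
Log2 fold change of each gene against adult from the edgeR fit of all 10 libraries, with bars of 1 standard error; filled points have an adjusted p under 0.05. Csf2ra is raised in the 2 repopulating groups (0.86 and 0.69) and not called at PND8, Csf1 by 1.70 and 1.60 at PND8, and Csf3r is lowered at PND8 (-0.65 and -1.04); all 4 comparisons share the 2 adult libraries.

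Repopulating and PND8 cells of the same Ki67 status differed in more of the 9 genes than either did from adult. In Ki67-negative cells 3 were higher (Csf2ra, Csf3r and Mcl1) and 3 lower (Csf1, Bcl2l1 and Bcl2l11), where 18% of all genes were higher and 18.6% lower. In Ki67-positive cells the count was again 3 and 3, beside 16.7% and 14.2%. Csf3r was higher by 0.67 (adjusted p = 8.39e-05) and 0.89 (adjusted p = 7.67e-06), Bcl2l11 lower by -0.52 (adjusted p = 0.0105) and -0.55 (adjusted p = 0.00959). Mcl1 was higher by 0.33 (adjusted p = 0.0172) and 0.36 (adjusted p = 0.0119), and lost both calls with header code as a term (0.17, adjusted p = 0.167, and 0.20, adjusted p = 0.115) and on leaving out PND8 replicate 1 or repopulating replicate 2. The Bcl2l11 calls were lost without PND8 replicate 2 (adjusted p = 0.0552 and 0.0547) or repopulating replicate 2 (-0.41, adjusted p = 0.0902, and -0.31, adjusted p = 0.102). Against adult at PND8, 1 gene of the 9 was higher and 2 lower in each Ki67 status, beside 25.4% and 21.4% of all genes in Ki67-negative and 25.1% and 24.3% in Ki67-positive cells.

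Ki67 status by itself moved little among the 9. In repopulation none passed, where 1.87% of all genes were higher in Ki67-positive cells and 0.867% lower; 3 of the 9 (Csf1, Bcl2l1 and Bcl2l11) had an unadjusted edgeR p below 0.05, all lower in Ki67-positive cells. DESeq2 called none of them. At PND8 1 passed, Csf3r, which was lower in Ki67-positive cells (-0.39, SE 0.091, adjusted p = 0.0217), beside 2.75% of all genes higher and 3.15% lower. The Csf3r call was lost with the 2 groups fitted alone (-0.36, adjusted p = 0.173) and without either Ki67-positive library. Whether the Ki67 difference itself changed between PND8 and repopulation was tested as an interaction: no gene of the 12230 passed with edgeR, 613 had an unadjusted p below 0.05, DESeq2 called 3, and none of the 9 was called.

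The other genes of these pathways that were tested give the setting. Of 21 genes of CSF1R signalling, 4 were higher and 3 lower than adult in Ki67-negative repopulating cells, where 21.5% of all genes were higher and 17.6% lower. In Ki67-positive cells it was 5 and 3, beside 23.9% and 21%. Fyn, a Src-family kinase, led in both, at 32.04 and 32.14 CPM in adult and 72.75 to 82.13 in repopulation (log2 fold changes 1.33 and 1.22), and it was 118.6 to 129.9 CPM at PND8. Tyrobp, an adaptor beside CSF1R, was at 0.38 and 0.35, Plcg2 at 0.27 and 0.30 and the kinase Mapk3 at 0.25 and 0.34, called in both Ki67 states. Lower were the transcription factors Runx1 (-0.64 in both) and Cebpa (-0.30 and -0.27) and the exchange factor Sos1 (-0.53 and -0.55). The list's median was -0.01 and -0.04, near that of all genes.

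Of 12 tested genes around the common beta chain, 3 were higher in both Ki67 states, and 1 was lower in Ki67-negative and 2 in Ki67-positive cells, with list medians of -0.07 and -0.10. Among all genes 21.5% and 23.9% were higher and 17.6% and 21% lower. Il3ra, the IL-3 receptor alpha chain that uses the same partner as Csf2ra, was 6.824 and 3.666 CPM in adult and 34.89 to 41.41 in repopulation (2.78 and 2.97). Unlike Csf2ra, Il3ra was as high at PND8, at 30.69 to 49.12 CPM. Socs2, a feedback inhibitor induced by STAT5, was higher by 2.88 and 1.96 at levels of 1.222 and 1.388 CPM in adult and 4.03 to 10.51 in repopulation, and Pim1, a kinase also induced by STAT5, by 1.09 and 0.81. At PND8 Socs2 was 4.075 to 9.815 CPM, and Pim1 was 40.42 to 53.59 CPM against 21.51 to 32 in repopulation. Stat5b itself was lower (-0.35 and -0.41), as was Socs3 in Ki67-positive cells (-0.51), which was at -0.18 (adjusted p = 0.231) in Ki67-negative cells.

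**Figure D4:**
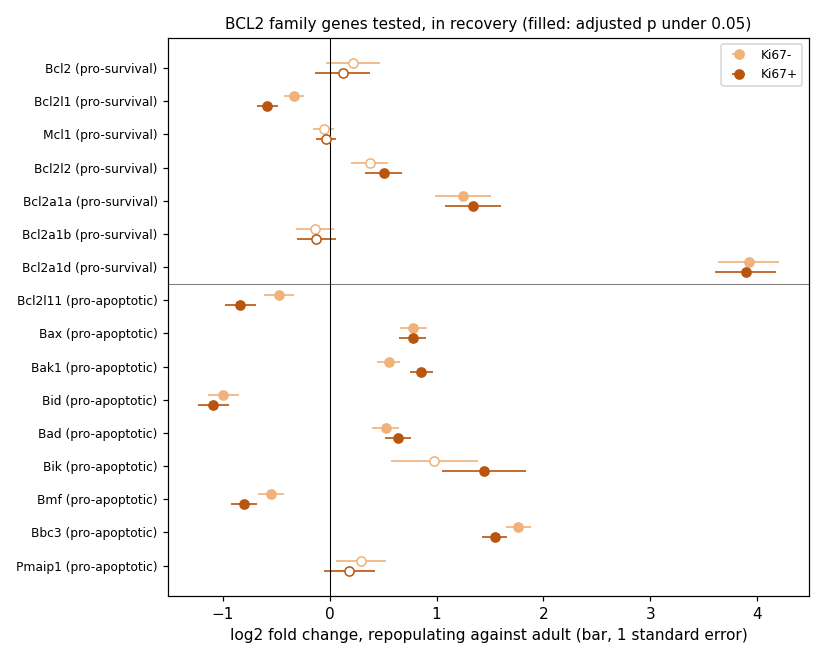
Log2 fold change in repopulating against adult cells, with bars of 1 standard error, for the BCL2 family genes tested; pro-survival genes are above the line and pro-apoptotic genes below, and filled points have an adjusted p under 0.05. Bcl2l1 (-0.33 and -0.58) is the pro-survival gene that fell, and Bcl2l11, Bid and Bmf are the pro-apoptotic genes that fell.

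In the rest of the BCL2 family, genes of either function were among those called higher. Of 4 further pro-survival genes tested (of 6 listed), 2 were higher in Ki67-negative and 3 in Ki67-positive cells and none lower, with list medians of 0.81 and 0.92, where 21.5% and 23.9% of all genes were higher and 17.6% and 21% lower. Bcl2a1d was 1.504 and 0.8554 CPM in adult and 16.55 to 19.96 in repopulation (3.92 and 3.89), and Bcl2a1a was at 1.25 and 1.34. Bcl2a1d was also 11.79 to 13.67 CPM at PND8, so it was low only in the 2 wild-type adult libraries; the Bcl2a1 genes are near-identical copies, and their values are uncertain. Bcl2l2 was higher by 0.50 in Ki67-positive cells and at 0.37 (adjusted p = 0.102) in Ki67-negative cells.

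Of 8 further pro-apoptotic genes tested (of 10 listed), 4 were higher and 2 lower in Ki67-negative, and 5 and 2 in Ki67-positive cells, with list medians of 0.54 and 0.71, beside the same shares of all genes (21.5% and 17.6%, then 23.9% and 21%). Bbc3, which encodes the p53-induced BH3-only protein PUMA, was 27.41 and 24.44 CPM in adult, 33.91 to 40.18 at PND8 and 75.28 to 89.72 in repopulation (log2 fold changes 1.77 and 1.54), with no overlap. The pore-formers rose too, Bax by 0.78 and 0.775 and Bak1 by 0.55 and 0.86. Both were also above adult at PND8. Bax was 55.07 to 75.02 CPM there against 40.71 and 42.04 in adult, and Bak1 93.31 to 110 against 74.14 and 61.34. Bik rose by 1.44 in Ki67-positive cells and was at 0.98 (adjusted p = 0.0705) in Ki67-negative cells. The BH3-only genes Bid (-0.998 and -1.09) and Bmf (-0.55 and -0.80) fell with Bcl2l11. At PND8 these 2 were below adult as well. Bid was 58.95 to 80.57 CPM there against 96.58 and 98.37 in adult, and Bmf 122.1 to 211.4 against 294.8 and 280.3. Downstream, Apaf1, the scaffold of the apoptosome, rose by 1.07 in each Ki67 state. Apaf1 was also above adult (60.72 and 57.19 CPM) at PND8, at 85.4 to 110 CPM. Htra2, a mitochondrial protease, was lower (-0.30 and -0.45), as was Birc3, an inhibitor of apoptosis, in Ki67-positive cells (-0.43), which was at -0.18 (adjusted p = 0.188) in Ki67-negative cells. The calls of Tyrobp, Plcg2, Sos1, Cebpa, Stat5b, Pim1, Socs3, Bcl2l2, Bik, Htra2 and Birc3 were lost in at least 1 alternative in at least 1 of the comparisons for which they were chosen.

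The genes whose log2 CPM followed a member most closely over the 10 libraries, of 12229 others, were Samd9l, Spock1 and Cd72 for Csf2ra (Pearson r 0.993, 0.992 and 0.991), Enpep, Ccdc8 and Arhgap23 for Csf1 (0.993, 0.99 and 0.987), Bank1, Ccl4 and Akirin1 for Bcl2l1 (0.984, 0.981 and 0.978), and Syt8, Tmem104 and Ppp3ca for Bcl2l11 (0.983, 0.971 and 0.965). For Csf2rb they were Cat, Lcmt1 and Tyw1 (0.965, 0.932 and 0.93). These are descriptions over libraries that share groups and header codes.

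At the level of chromatin all 9 genes were marked in every setting. Each had an H3K27ac peak within 1 kb of its start in all 12 libraries, which 64.3% of tested genes had. All 9 had an H3K4me3 peak, a promoter mark, in both adult libraries (89.8% of genes). A peak of Rpb2, a subunit of RNA polymerase II, lay within 1 kb in both adult libraries at 8 of the 9, all but Bcl2 (47.5% of genes), and at all 9 in the PND8 Ki67-positive library (80.4%). Open chromatin by ATAC-seq was called at all 9 in the adult (88.3%) and repopulating (90.8%) libraries and at 8 at PND8, where Csf1r had no peak within 1 kb (89.2%). The Rpb2 and ATAC-seq groups other than adult Rpb2 had 1 library each, so these have no replicate check.

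H3K27ac libraries differed in yield: the adult lists covered 29.98 and 42.07 Mb of genome with 32.6% and 58.31% of tags in peaks, and the other 10 covered 40.73 to 52.17 Mb. The length covered within 20 kb of the start was longer in both repopulating than in both adult libraries for 6 of the 9 genes (Csf1r, Csf2ra, Csf1, Bcl2, Bcl2l1 and Mcl1), and shorter for none. Of all tested genes 54.4% were longer and 2.69% shorter. Taken as a share of each library's covered length, Bcl2 alone was longer, and Csf1 and Bcl2l11 were shorter.

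Bcl2 showed the clearest difference between settings. Its promoter peak covered 501 and 1223 bp in adult, 1354 to 1750 bp at PND8, 1503 to 1915 bp after cuprizone and 1836 and 1912 bp in repopulation. A separate region 17 to 20 kb into the gene (chr1:106694537-106696830, mm10, inside the transcribed span and over no other gene's start) was called in all 4 cuprizone and both repopulating libraries, and in none of the 2 adult and 4 PND8 libraries. There it covered 1742 and 1980 bp in repopulation and 1228 to 2082 bp after cuprizone. This pattern, chosen after its values were seen, was found at 36 of 12230 genes, or 0.294%. Libraries with the region all came from mice of 90 days, and those without it from mice of 60, 65 or 8 days. Age and treatment therefore cannot be told apart here. Under header code 190118, adult replicate 2 and both PND8 replicates 2, with 42.07 to 51.08 Mb covered, lacked the region, and repopulating replicate 1, with 50.18 Mb, had it; under code 180830 both PND8 libraries lacked it and both cuprizone libraries had it. The region held 1 ATAC-seq peak in adult, 1 at PND8 and 2 in repopulation, with tag counts of 16.5, 40.7 and 86.2 (1 library each). Bcl2 RNA was not called between repopulating and adult cells, and cuprizone has no RNA library here.

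**Figure D5:**
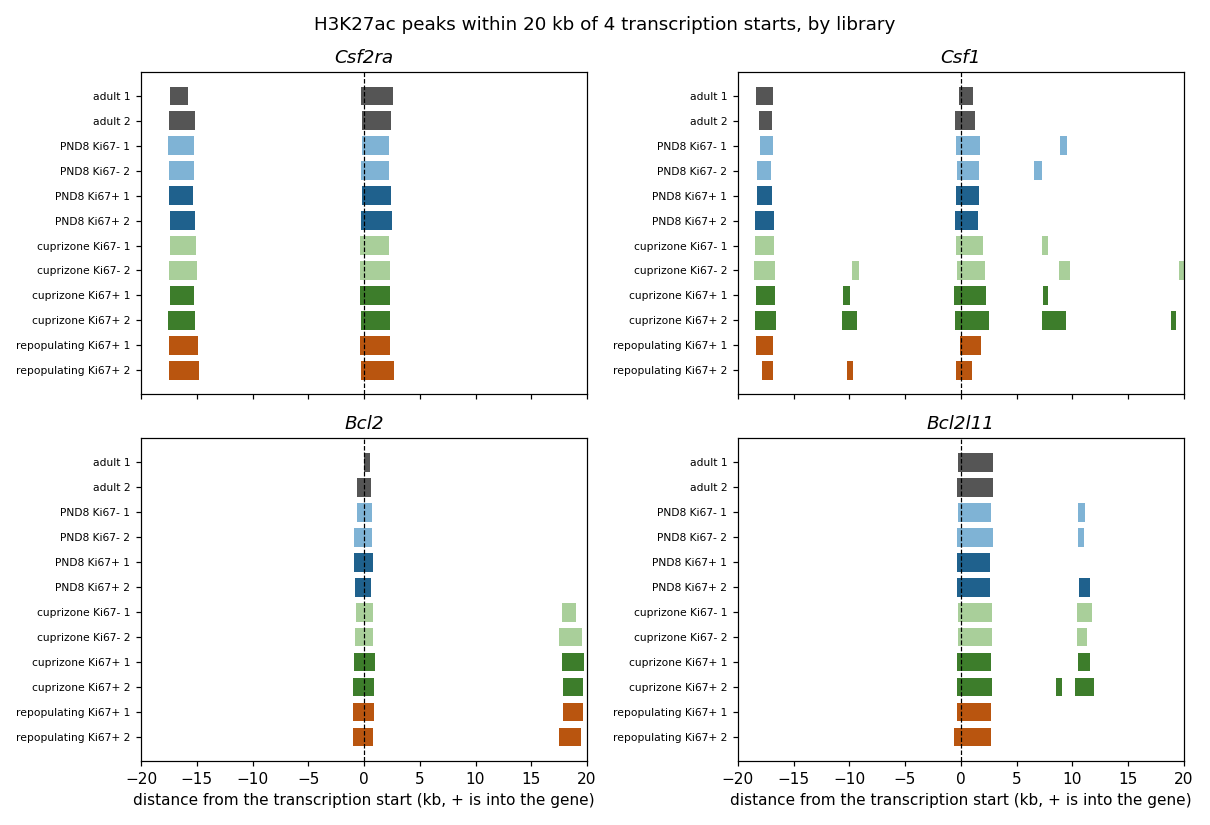
H3K27ac peaks (bars) within 20 kb of the start of 4 genes in the 12 libraries, by distance from the start in kb, positive into the gene. The peak 17 to 20 kb into Bcl2 is present in the 4 cuprizone and 2 repopulating libraries and in none of the 6 adult and PND8 libraries, and Csf1 has further peaks mostly after cuprizone.

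A region found in both repopulating libraries and in no adult library occurred at 2 of the 9 genes, Bcl2 and Bcl2l1, and at 15.4% of tested genes; without repopulating replicate 1 it occurred at 5. That of Bcl2l1 lies 17 to 19 kb upstream and spans the start of another gene, Tpx2, a spindle gene of mitosis. Its covered length was 0 in adult, 908 to 1531 bp at PND8, 0 and 646 bp in Ki67-negative and 1042 and 1473 bp in Ki67-positive cuprizone cells and 1598 and 1223 bp in repopulation. Tpx2 RNA, looked up after this was seen, was 1.272 and 2.566 CPM in adult, 48.14 to 67.88 in Ki67-negative and 154.5 to 202.3 in Ki67-positive cells of the other groups. The longer H3K27ac cover around Bcl2l1 in repopulation, where its RNA fell, includes the start of this neighbouring cell-cycle gene. The regions over Bcl2l1 itself, at its start and 12 to 23 kb into the gene, were present in all 12 libraries. The one at its start was also longer, at 3596 and 2791 bp in repopulation, 2540 to 2814 bp at PND8 and 2675 to 3535 bp after cuprizone against 2220 and 2228 bp in adult.

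Csf1 had its broadest H3K27ac after cuprizone. Peaks over the start covered 1210 and 1733 bp in adult, 1993 to 2133 bp at PND8, 2451 to 3068 bp after cuprizone and 1865 and 1430 bp in repopulation. Between 7 and 10 kb into Csf1 all 4 cuprizone and both PND8 Ki67-negative libraries had a peak, and no adult, PND8 Ki67-positive or repopulating library had one. These peaks were not at 1 shared site: those of the 2 Ki67-negative cuprizone libraries lay 7296 to 7796 and 8764 to 9772 bp from the start, and those at PND8 8859 to 9497 and 6572 to 7272 bp. They were joined to 1 region through a longer peak of Ki67-positive cuprizone replicate 2, at 7295 to 9463 bp. Bcl2l11 had a region 10 to 12 kb into the gene in all 4 cuprizone and 3 of 4 PND8 libraries (501 to 1650 bp) and in neither the adult nor the repopulating libraries. With Bcl2, these make 3 of the 9 genes with a joined region in all 4 cuprizone and in no adult library, which 5.26% of tested genes had; that of Csf1 rests on the joining. The start of Bcl2l11 was covered over 2947 to 3342 bp in all 12 libraries. Tag counts there varied more, at 661.7 to 898 at PND8, 636.8 to 830.6 after cuprizone and 395 and 507.7 in repopulation. In adult they were 459.6 and 691, which overlapped repopulation.

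At the receptor genes most regions were present in all 12 libraries. A region in all 4 PND8 libraries and in no adult library was found at Csf3r and at Bcl2l1 (the Tpx2 start), 2 of the 9 against 10.2% of tested genes. That of Csf3r lies 10 to 12 kb into the gene, covered 771 to 1057 bp at PND8, and was also called at 501 bp in 1 cuprizone and 1 repopulating library. Csf3r RNA was lowest at PND8. Each ATAC-seq library had a peak in the same region, with a tag count of 64.4 in adult, 13.6 at PND8 and 19.8 in repopulation (1 library each). Another region, 5365 to 8589 bp into Csf3r, was present in all 12 libraries. It covered 2780 and 2328 bp in adult, 1601 to 1995 bp at PND8, 2389 to 3029 bp after cuprizone and 1515 and 3188 bp in repopulation. Its tag counts were 242.9 and 566.4 in adult, 109.8 to 175.7 at PND8, 410.3 to 618.1 after cuprizone and 276 and 535.1 in repopulation. Csf2ra had 2 regions, at its start and 15 to 18 kb upstream, in all 12 libraries: the first covered 2460 to 3013 bp and the second 1670 and 2349 bp in adult, 2154 to 2443 bp at PND8 and after cuprizone and 2567 and 2706 bp in repopulation, where its RNA was highest. Tag counts of the second overlapped between settings. They were 177.8 and 354.3 in adult, 229.3 to 312.9 at PND8 and after cuprizone and 252.1 and 392.5 in repopulation. Csf1r had 4 regions in all 12 libraries, from 16 kb upstream to 17 kb into the gene, the one at its start covering 3485 to 5042 bp outside repopulation and 5097 and 5267 bp in it. All 5 regions of Mcl1 were present in all 12 libraries.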

How the data were processed

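Per the submitters' processing notes, STAR 2.7.0f, Bowtie2 2.3.4.1 and HOMER 4.11 were used with mm10 and GRCm38. Per the file headers, the authors counted reads with HOMER over the exons of 1 transcript per gene, unadjusted, with at most 3 tags per position, and the deposited TPM values came from the same tool; the strand setting is not given in the sources used here. Peaks were called by the authors in each library separately, and the deposited peak scores and normalised tag counts (signal) are theirs.

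The members and gene lists were chosen with earlier results of these data known. Counts of 10 libraries (2 a group; the labels call them biological replicates) were fitted with edgeR 4.0.16 (R 4.3.3; TMM, low counts filtered by group, quasi-likelihood test, all 5 groups in 1 fit, threshold 0.05, Benjamini-Hochberg adjustment over all genes tested). Named genes are the 9 members, up to 3 called genes per direction with the largest change in each pathway list against adult, and the 3 genes most like each member called there (prior count 2); Tpx2 was added later. H3K27ac was described as bases covered within 1 and 20 kb of the start, peaks within 500 bp of each other being joined across libraries (a step chosen after the data were seen), with no test. Alternatives used DESeq2 1.42.0, limma 3.58.1 on log2(TPM + 1) and log2(TPM + 0.1), other scaling, filters and sample sets. In 12006 genes simulated for Ki67-positive repopulating against adult cells, 200 were changed. Of these, 38.8% of 1.5-fold, 83.6% of 2-fold and 90.9% of 3-fold changes were recovered, so a change of 1.5-fold could be missed there. The data had 5489 calls in that comparison. With more changed genes the adjustment is less strict, so these rates do not carry over to the data. Inputs were not used here. Some genes of the apoptosome list are not reported here.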

Additional observations from a re-analysis of the deposited data

How the results depend on the processing

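Of 27 called differences of the 9 genes, 16 kept their call in every alternative run, and none changed direction. Over 310 refits of these 27, 34 lost the call, 24 of them on leaving out a library. Among the 9 genes, 4 were called in Ki67-negative repopulating cells against adult, but 1 to 2 on leaving out a library. Fitting only the groups compared, 5 were called in PND8 Ki67-positive cells against adult and 0 by Ki67 at PND8. By Ki67 in repopulation the count rose from 0 to 1 with no filter on low counts, with header code as a batch term and, over the libraries left out, to between 0 and 1; at PND8 it was 2 with no filter, 2 with header code, and 0 to 1 over the libraries left out. The cause of these moves was not tested.

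Small uncalled values changed sign. Csf3r in Ki67-negative repopulation was -0.0235 with library sizes alone and -0.0516 and -0.0518 with limma on log2(TPM + 1) and log2(TPM + 0.1); Csf1r in Ki67-positive repopulation was -0.0267, -0.0763 and -0.0764. Over the libraries left out, Ki67-negative repopulation against adult ran from -0.163 to 0.549 for Bcl2, -0.175 to 0.132 for Csf1r, -0.0461 to 0.0828 for Csf3r and -0.14 to 0.0274 for Mcl1, and Ki67-positive from -0.241 to 0.406 for Bcl2, -0.0413 to 0.023 for Csf1, -0.0737 to 0.0576 for Csf1r and -0.0969 to 0.00544 for Mcl1.

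Counts over all genes moved more. By Ki67 in repopulation 335 genes became 736 with no filter, 998 with header code, 176 with limma on log2(TPM + 0.1) and 105 to 305 over the libraries left out; by Ki67 at PND8 721 became 1290, 1631, 450 and 220 to 1113, and 392 with the 2 groups alone. The interaction went from 0 genes to 3 with DESeq2, 52 with no filter, 11 with header code and 0 to 71 over the libraries left out. On leaving out a library, calls against adult went from 4789 to between 3078 and 3756 in Ki67-negative and from 5489 to between 3640 and 4487 in Ki67-positive repopulation, and calls against PND8 from 4473 to between 2869 and 4725 and from 3778 to between 2269 and 2632. Library sizes alone shifted the median gene by -0.13 in Ki67-negative repopulation against PND8 and the share of higher calls from 49.3% to 37.4%, and in Ki67-positive from 54% to 43.8%; by Ki67 in repopulation it went from 68.4% to 57.3% with DESeq2 and 79.4% and 81.2% with limma.

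The labels do not say whether same-numbered libraries share animals, but within a setting those of either Ki67 status share a header code. With the number as a replicate block, no named gene changed its call, 711 genes were called by Ki67 in repopulation, 1228 at PND8 and 2 for the interaction. Same-numbered deviations correlated at 0.263 between the repopulating groups and 0.338 between the PND8 groups, and at -0.0084 to 0.0974 in other pairs. For H3K27ac in repopulation against adult, taking lengths as a share of the library total left 1 gene longer and 2 shorter; peaks at or above their list's median score left 4 longer and 1 shorter; on leaving out a library 6 to 9 were longer and 0 to 2 shorter. Regions in repopulation and not in adult were at 2 to 5 genes over the libraries left out (an alternative chosen after seeing the data), and at 2 with peaks joined within 100 or 1000 bp. With 2 libraries a group, single libraries decide modest calls, the spread between replicates limits Bcl2, and the position limit of the counts limits Csf1r.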
